A study of Mus musculus with 16 samples.

Results

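The 9 genes described here encode Kruppel-like factors (KLFs), a family of zinc finger transcription factors: Klf2, Klf3, Klf4, Klf5, Klf6, Klf7, Klf10, Klf13 and Klf15. They were followed at every probe set that the array platform assigns to 1 of these symbols, which gave 27 probe sets of the 45037 tested and 9 of the 18193 genes named on the array. Whole left lungs came from male Balb/c mice aged 15 weeks, and their total RNA was hybridised to Affymetrix arrays, 1 per labelled replicate. The exposure was to second-hand smoke (SHS, sidestream cigarette smoke at 10 mg/m3 of particles, 5 hours a day, 7 days a week) or to filtered air. AA mice breathed air before birth and as adults, AS mice air before birth and SHS as adults, SA mice SHS before birth and air as adults, and SS mice SHS at both times. The labels call the replicates biological and name no litter, batch or hour of collection.

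KLFs bind GC-rich and CACCC-type DNA through a conserved zinc finger end and differ in the partners recruited by the rest of the protein. Klf2, Klf4, Klf5, Klf6 and Klf7 act mostly as activators, Klf3 represses through the corepressor CtBP, and Klf10 and Klf13 recruit the Sin3 corepressor. In the lung, Klf2 and Klf4 are known for keeping the vessel lining quiescent under blood flow, Klf5 for epithelial maturation, and Klf15 as a gene switched on by glucocorticoids.

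Values are log2 expression as deposited, so a difference of 1 is a doubling. AS replicates 3 and 4, and SS replicates 1 and 2, stood out as near-identical pairs: their differences over variable probe sets were 1.35 and 1.24 times those over stable ones, against 2.84 to 5.96 in 22 other pairs of a group. The mean of each such pair stood for 1 sample, and whether a pair came from 1 animal or 2 is not known. The groups then held 4 samples for AA, 3 for AS, 4 for SA and 3 for SS. At stable probe sets, AS replicates 3 and 4 differed from AS replicates 1 and 2 by 0.207 to 0.257 (root mean square, log2). Every other pair of a group differed by at most 0.132 there. The lung markers Sftpc and Ager had mean values of 15.07 and 14.40, and the endothelial marker Cdh5 11.77, while the macrophage marker Marco was dim at 5.51. Differences are given with the standard error (SE) of a limma fit over the 14 samples, and a difference passed the test when its Benjamini-Hochberg adjusted p over all probe sets was under 0.05. A gene with several probe sets is represented by its brightest, the one with the highest mean.

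Among the 9 genes, those passing the test for adult SHS after air in utero were others than those passing after SHS in utero. The difference between those effects itself passed for Klf2 and Klf10 alone of the 9. Outside the 9, it passed also at 1422264_s_at, a dimmer probe set of Klf9 (0.98, adjusted p = 0.0241, limma). After air in utero (AS minus AA), Klf2 and Klf4 rose and Klf10 fell. These were 3 of 27 probe sets, where 1.55% of all probe sets passed the test. In each direction it was 2 higher (0.591% of all probe sets) and 1 lower (0.961%). After SHS in utero (SS minus SA), Klf7, Klf15 and Klf3 rose. These were 5 of 27 probe sets, where 1.64% of all probe sets passed, 0.773% higher and 0.864% lower. Among smoke-exposed adults (SS minus AS), Klf2 was lower and Klf7 and Klf10 were higher after SHS in utero, at 4 of 27 probe sets against 0.968% of all. That is 3 higher, against 0.611% of all, and 1 lower, against 0.357%. Klf2 and Klf10 passed the test of the difference between the adult effects in opposite directions. They were 2 of 27 probe sets against 0.131% of all, 1 higher against 0.0822% and 1 lower against 0.0488%. The comparisons share samples, so that these counts are not independent of one another. In whole lung, fewer cells of a type and less RNA per cell cannot be told apart.

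In both adult comparisons the 27 probe sets of the 9 genes leaned upward. Klf3 holds 7 of them and Klf6 5, and the 9 genes were chosen with earlier results of these data known. Over 14 other Klf and Sp factors, at their brightest probe sets, the median was 0.02 in AS minus AA and 0.08 in SS minus SA. Over all genes it was 0.02 and -0.01. The median difference of the 27 probe sets was 0.26 in AS minus AA and 0.23 in SS minus SA, against 0.02 and 0.01 over all probe sets, and 21 and 22 of the 27 lay above 0. In SS minus AS the median was 0.03, with 14 above 0. The counts moved when single samples were left out: in SS minus SA, leaving out SS replicate 3 left 0 passing probe sets. Leaving out SS replicates 1 and 2 left 1, and leaving out SA replicate 2 or 3 left 3. In AS minus AA, 5 passed without AS replicate 1, without AS replicates 3 and 4 or without SA replicate 4. In SS minus AS, 2 passed without SS replicates 1 and 2 or without SS replicate 3. For the difference between the adult effects, 0 passed without AS replicate 2, SS replicates 1 and 2 or SS replicate 4. There, 1 passed without AA replicate 1, 2 or 4, AS replicates 3 and 4, or SA replicate 1, 2 or 3, so that the count of 2 stayed in 4 of 14 fits.

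**Figure D1:**
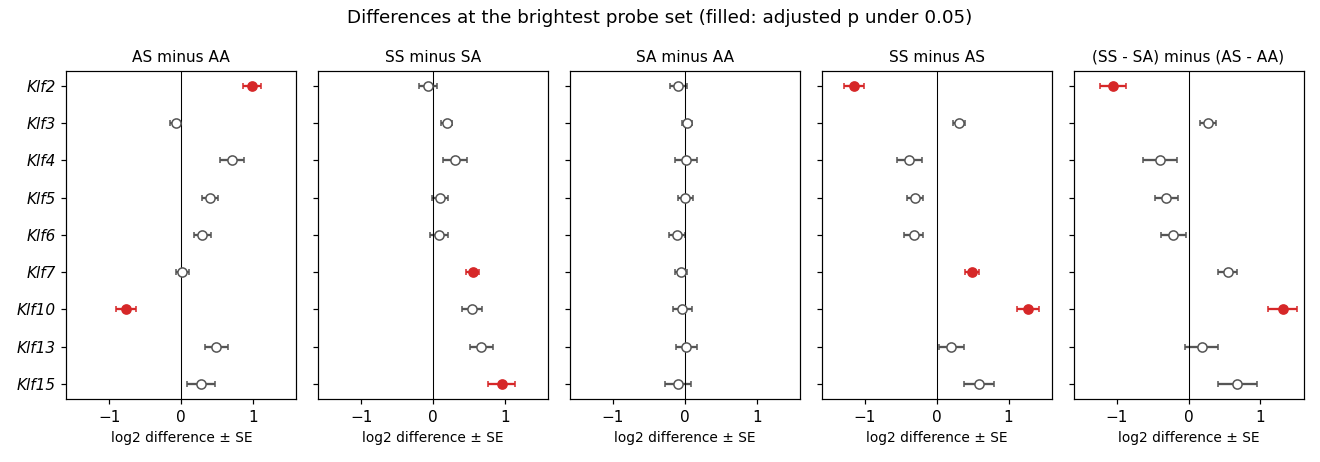
Log2 differences ± SE (x axis) of the brightest probe set of each of the 9 genes (y axis) in the 5 comparisons, 1 panel each, with filled red points for an adjusted p under 0.05. Klf2 and Klf10 sit on opposite sides of 0 in AS minus AA (0.98 and -0.77) and again, with their places exchanged, in SS minus AS (-1.15 and 1.27), and all points of SA minus AA lie close to 0.

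The promoters of 4 genes that passed in an adult comparison are shown so that their letters can be read beside the values: Klf2 and Klf4, which rose after air in utero, and Klf7 and Klf15, which rose after SHS in utero. Each is the 250 bases before the gene's start in RefSeq, build GRCm38.p6, read along the gene's strand. Klf2 is at chr8:72318812-72319061 on the plus strand, Klf4 at chr4:55532476-55532725 on the minus strand, Klf7 at chr1:64121390-64121639 on the minus strand and Klf15 at chr6:90462326-90462575 on the plus strand. Capitals mark a MEF2 site, the E-box CACGTG or the GC box GGGCGG, on either strand.
Klf2: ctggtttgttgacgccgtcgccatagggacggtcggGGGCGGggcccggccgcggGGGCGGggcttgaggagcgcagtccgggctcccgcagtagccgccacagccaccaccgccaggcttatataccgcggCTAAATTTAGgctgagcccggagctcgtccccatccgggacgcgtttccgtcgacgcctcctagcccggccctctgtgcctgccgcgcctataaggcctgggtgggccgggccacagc
Klf4: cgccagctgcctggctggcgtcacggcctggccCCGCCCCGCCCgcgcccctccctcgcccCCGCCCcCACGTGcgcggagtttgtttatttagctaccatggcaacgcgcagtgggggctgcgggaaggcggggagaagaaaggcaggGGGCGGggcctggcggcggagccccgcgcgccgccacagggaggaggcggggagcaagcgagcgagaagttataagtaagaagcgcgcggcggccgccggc
Klf7: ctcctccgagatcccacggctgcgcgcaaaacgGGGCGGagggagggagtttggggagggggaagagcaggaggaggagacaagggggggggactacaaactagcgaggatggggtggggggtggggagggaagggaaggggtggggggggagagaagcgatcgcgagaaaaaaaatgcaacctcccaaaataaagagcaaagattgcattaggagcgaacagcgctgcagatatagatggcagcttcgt
Klf15: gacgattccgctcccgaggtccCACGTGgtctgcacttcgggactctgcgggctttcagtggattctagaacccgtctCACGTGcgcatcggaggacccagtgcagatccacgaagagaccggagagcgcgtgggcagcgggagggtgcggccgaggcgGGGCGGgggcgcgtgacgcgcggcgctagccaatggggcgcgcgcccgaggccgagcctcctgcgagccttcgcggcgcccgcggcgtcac
The MEF2 site, where MEF2 factors bind, began 118 bases before the start of Klf2 and was found in no other of the 7 KLF promoters that the table holds. It occurred in 2.92% of 32851 mouse promoters of this length. The E-box CACGTG, bound by clock and MYC-type factors, occurred once in Klf4 and in Klf6 and at 2 places in Klf15, 228 and 172 bases before its start. Of all promoters, 6.02% hold 1 or more such E-boxes and 0.429% hold 2 or more. The GC box GGGCGG, which KLF and Sp proteins bind, was found in all 7, as in 32.7% of all promoters, with 6 matches in Klf3. Also searched on both strands were CCACACCC (in 3.2% of promoters), TGACGTCA (1.55%), TGANTCA (6.75%), the full palindrome of the glucocorticoid response element (0.00913%) and the CArG box (1.47%), and these letters were in none of the 7 windows. A match describes the letters and is not a measured binding site.

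Klf2, the flow-induced factor of the vessel lining that also marks resting T cells, had values of 12.04, 12.05, 12.30 and 11.99 in AA lungs and 13.01, 13.03 and 13.19 in AS lungs. The SA lungs had 12.03, 12.14, 12.16 and 11.67, and the SS lungs 11.99, 12.14 and 11.65. The AS samples were therefore apart from the other 3 groups, which overlapped one another. Adult SHS raised Klf2 by 0.98 ± 0.13 (SE) after air in utero, 1.98-fold (adjusted p = 0.00307, limma), and this passed without each sample in turn (largest adjusted p 0.0141). After SHS in utero the difference was -0.07, with a 95% interval from -0.34 to 0.21 (adjusted p = 0.862). Among smoke-exposed adults, Klf2 was 2.22-fold lower in SS than in AS (adjusted p = 0.00121).

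The difference between the adult effects on Klf2 was -1.05 ± 0.18 (SE), with a 95% interval from -1.44 to -0.66 and an adjusted p of 0.0399 in limma. That call was lost in 10 of 14 fits that left out 1 sample: AA replicates 1, 2 or 4 (adjusted p 0.0681, 0.0803 and 0.0610), AS replicate 2 or replicates 3 and 4 (0.0854 and 0.0685), SA replicates 1, 2 or 3 (0.0528, 0.0780 and 0.0991), and SS replicates 1 and 2 or replicate 4 (0.101 and 0.0959). The size of the difference in these fits stayed between -1.08 and -0.91.

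Klf4, the closest partner of Klf2 in endothelium and also a factor of epithelial barriers and macrophages, has a pair of probe sets. The dimmer one, 1417395_at, gave 10.55, 10.16, 10.68 and 10.24 in AA and 11.50, 11.66 and 11.73 in AS. It gave 10.38, 10.70, 10.83 and 10.02 in SA and 10.82, 11.26 and 10.52 in SS. The AS samples were above all others, and SS overlapped SA. It rose 2.33-fold in AS over AA (1.22 ± 0.19 SE, adjusted p = 0.00896, limma), a call kept without each sample in turn (largest adjusted p 0.0333). In SS minus SA it was 0.38 (adjusted p = 0.388), and the difference between the adult effects, -0.83, had an adjusted p of 0.320.

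The brighter Klf4 probe set, 1417394_at, had 11.88, 11.80, 12.24 and 11.77 in AA and 12.47, 12.91 and 12.48 in AS. Its SA values were 11.96, 12.10, 12.18 and 11.49, and its SS values 12.29, 12.43 and 12.01. It ran the same way as the dimmer set in AS minus AA, with no overlap between the groups, at 0.70 ± 0.17 (SE). Its adjusted p was 0.0504, just over the threshold, and fell to 0.0391 without AA replicate 3 and 0.0274 without SA replicate 4. The largest adjusted p without 1 sample was 0.130. Klf4 thus passed at 1 of its 2 probe sets.

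**Figure D2:**
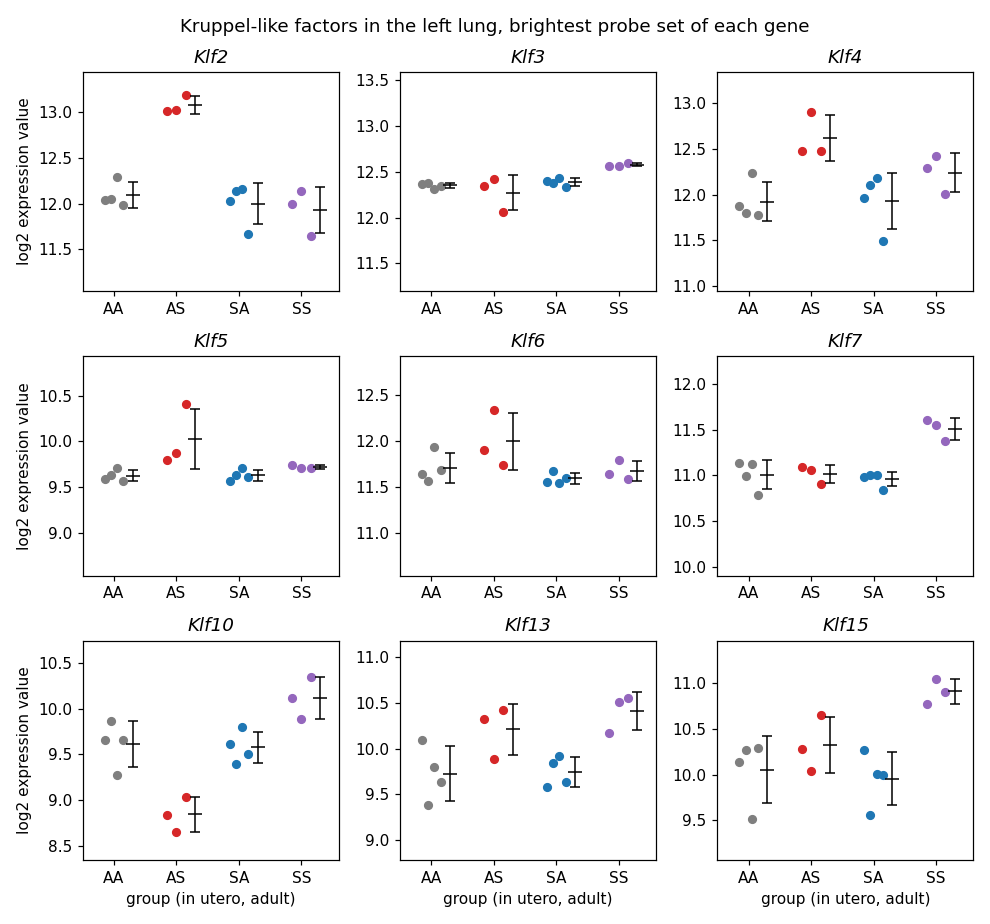
Log2 expression (y axis) at the brightest probe set of each of the 9 KLF genes in every sample, grouped by exposure in utero and as adults (x axis), with the group mean ± SD beside the points. The 3 AS samples of Klf2 (13.01 to 13.19) lie above every other sample, and the 3 AS samples of Klf10 (8.65 to 9.04) lie below every other sample.

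Klf6, an injury-induced factor of many cell types, has 5 probe sets, of which 0 passed in any comparison. Its unadjusted p was under 0.05 at 3 in AS minus AA (20.3% of all probe sets) and 4 in SS minus AS (13.6%). It was so at 1 in SA minus AA (6.23%) and 0 in the others. The brightest had 11.64, 11.56, 11.93 and 11.69 in AA, 11.91, 12.34 and 11.74 in AS, 11.55, 11.67, 11.55 and 11.60 in SA, and 11.64, 11.79 and 11.59 in SS. AS replicate 2 was the highest, and AS overlapped AA. The difference was 0.29 ± 0.12 (SE) in AS minus AA (adjusted p = 0.197) and 0.08 in SS minus SA (0.821). The largest difference of the gene in AS minus AA was 0.52 at 1418280_at (adjusted p = 0.0875). All 5 probe sets were above 0 in AS minus AA, but they read 1 gene in the same samples and are not independent.

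Klf5, a factor of airway and alveolar epithelium, had 9.58, 9.64, 9.71 and 9.57 in AA and 9.79, 9.88 and 10.40 in AS at its brightest probe set. The SA values were 9.57, 9.63, 9.71 and 9.61, and the SS values 9.75, 9.71 and 9.71. All AS samples were above all AA samples, and the averaged AS replicates 3 and 4 were the highest. The difference of 0.40 ± 0.11 (SE) in AS minus AA had an adjusted p of 0.0760 in limma. It was 0.21 without AS replicates 3 and 4, and it passed without AS replicate 1 (0.52, adjusted p = 0.0369). The largest adjusted p without 1 sample was 0.157. The other probe sets of Klf5 gave 0.00 and -0.02 in this comparison, and 0 of its 3 probe sets passed in any. The unadjusted p was under 0.05 at 1 of them in AS minus AA and 1 in SS minus AS (20.3% and 13.6% of all probe sets).

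Klf10, a TGF-beta-induced repressor that limits cell growth, moved against Klf2. Its values were 9.66, 9.86, 9.27 and 9.66 in AA, 8.84, 8.65 and 9.04 in AS, 9.61, 9.39, 9.79 and 9.51 in SA, and 10.12, 9.89 and 10.35 in SS. The AS samples were below every other sample and the SS samples above every other, with AA and SA between them. It fell by 0.77 ± 0.14 (SE) in AS from AA, 1.70-fold (adjusted p = 0.0195, limma), and this was lost without AA replicate 2 (adjusted p = 0.0626). In SS minus SA it was 0.54 ± 0.14 (SE) higher with an adjusted p of 0.0777. Over the fits without 1 sample, that p ran from 0.0457, without AA replicate 3, to 0.283. Between the smoke-exposed adults it was 2.42-fold higher in SS than in AS (1.27 ± 0.15 SE, adjusted p = 0.00121), without exception over the fits that left out 1 sample (largest adjusted p 0.00995).

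The difference between the adult effects on Klf10 was 1.31 ± 0.20 (SE), with a 95% interval from 0.88 to 1.74 (adjusted p = 0.0170, limma). It was no longer past the threshold without AS replicate 2 (adjusted p = 0.0572), without SS replicates 1 and 2 (0.0620) or without SS replicate 4 (0.0603). The tests of Klf2 and Klf10 use the same 14 samples.

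**Figure D3:**
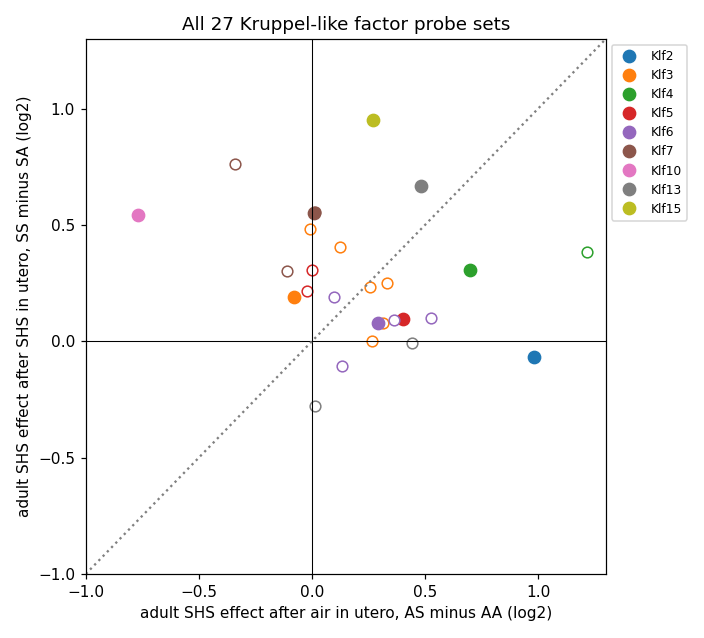
Effect of adult SHS after SHS in utero (SS minus SA, y axis) against that after air in utero (AS minus AA, x axis), both log2, for all 27 KLF probe sets, with filled points for the brightest of each gene and a dotted line of equal effects. Klf2 (0.98, -0.07) and Klf10 (-0.77, 0.54) lie far from the line on opposite sides, and Klf13 (0.48, 0.67) lies near it.

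Klf13, a Sin3-recruiting factor known from T cells and heart, was higher in both smoke-exposed groups but passed in neither comparison. Its brightest probe set had 10.09, 9.38, 9.80 and 9.63 in AA, 10.33, 9.89 and 10.42 in AS, 9.58, 9.85, 9.92 and 9.64 in SA, and 10.18, 10.51 and 10.56 in SS. SS did not overlap SA, while AS overlapped AA. The difference in SS minus SA, 0.67 ± 0.16 (SE), had an adjusted p of 0.0533 in limma. It passed without AA replicate 1 (0.0337), AA replicate 2 (0.0363), AS replicate 2 (0.0359) or AS replicates 3 and 4 (0.0479). Those samples are not part of the difference, which stayed 0.67. The largest adjusted p without 1 sample was 0.232. In AS minus AA the difference was 0.48 (adjusted p = 0.125). The probe sets of Klf13 disagreed: 1436316_at was -0.28 in SS minus SA (adjusted p = 0.482), and the dim 1456030_at was 0.44 in AS minus AA (0.0568) and -0.01 in SS minus SA.

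Klf7, an activator first known from neurons that also restrains fat cell formation, has 4 probe sets, against 1 each for Klf2 and Klf10. Over those 4, Klf7 gave the most calls of the 9 genes. At its brightest probe set, AA lungs had 11.13, 11.00, 11.12 and 10.78, AS lungs 11.09, 11.06 and 10.91, SA lungs 10.98, 11.00, 11.01 and 10.84, and SS lungs 11.60, 11.55 and 11.37. The SS samples were above all others and the other 3 groups overlapped. It rose 1.47-fold in SS over SA (0.55 ± 0.09 SE, adjusted p = 0.00719, limma), which ended only without SS replicate 3 (0.0529). In SS minus AS it was 0.49 ± 0.10 (SE) higher (adjusted p = 0.0261), lost without AS replicates 3 and 4 (0.0707), SS replicates 1 and 2 (0.127) or SS replicate 3 (0.107), and with only those groups in the fit (0.0893). In AS minus AA it was 0.01, with a 95% interval from -0.18 to 0.20.

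The other Klf7 probe sets leaned the same way in SS minus SA. Probe set 1419354_at rose by 0.55 ± 0.10 (SE, adjusted p = 0.0136) and 1419356_at by 0.76 ± 0.16 (SE, adjusted p = 0.0301), while 1419355_at was 0.30 (0.327). Without SS replicate 3 the passing pair had adjusted p values of 0.0978 and 0.177, and without SS replicates 1 and 2 they had 0.0821 and 0.133. Probe set 1419356_at was lost also without SA replicates 2, 3 or 4 (0.0549, 0.0954 and 0.0626). There, SA minus AA was -0.39 (adjusted p = 0.755, limma), and SS (10.69 to 11.16) overlapped AA (10.38 to 10.87). In SS minus AS, 1419354_at rose by 0.50 with an adjusted p of 0.0492 that was lost in 10 of 14 fits without 1 sample (largest 0.199, without SS replicates 1 and 2). It was lost also with only those groups in the fit (0.108) and after quantile normalization (0.0568). The difference between the adult effects was 0.54 at the brightest probe set (adjusted p = 0.135) and 1.10 at 1419356_at (0.0833), so that a different adult effect by in-utero group was not shown for Klf7.

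Klf3, the CtBP-bound repressor, has 7 probe sets, of which 1 passed. The brightest held a narrow range, with 12.37, 12.38, 12.31 and 12.34 in AA, 12.34, 12.42 and 12.06 in AS, 12.40, 12.38, 12.44 and 12.33 in SA, and 12.57, 12.57 and 12.60 in SS. All SS samples were above all others, by 0.19 over SA (adjusted p = 0.257) and 0.31 over AS (0.100). The passing probe set, 1429360_at, had 9.68, 9.45, 9.67 and 9.39 in AA, 9.70, 9.38 and 9.54 in AS, 9.32, 9.46, 9.42 and 9.28 in SA and 9.81, 9.98 and 9.77 in SS. It rose 1.40-fold in SS over SA (0.48 ± 0.10 SE, adjusted p = 0.0189, limma), lost without SS replicates 1 and 2 (0.0632) or SS replicate 3 (0.140). In SS minus SA, 6 of the 7 probe sets were above 0.

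Klf15, the glucocorticoid-induced factor of amino acid and glucose metabolism, had 10.14, 10.27, 9.51 and 10.29 in AA and 10.28, 10.04 and 10.65 in AS. It had 10.27, 9.56, 10.01 and 9.99 in SA and 10.78, 11.05 and 10.90 in SS. The SS samples were above all others, and AS overlapped AA. It rose 1.93-fold in SS over SA (0.95 ± 0.19 SE, adjusted p = 0.0223, limma). That call ended without SA replicate 2 (0.0624), SA replicate 3 (0.0576), SS replicates 1 and 2 (0.0609), SS replicate 3 (0.137) or SS replicate 4 (0.0720), with differences of 0.82 to 1.02. In AS minus AA it was 0.27 (adjusted p = 0.438), and the difference between the adult effects, 0.68 ± 0.27 (SE), had an adjusted p of 0.451.

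After smoke before birth and air as an adult (SA minus AA), 0 of the 27 probe sets passed in limma, where 0% of all probe sets did. At an unadjusted p under 0.05 there were 4 KLF probe sets and 2808 probe sets in all. The median KLF difference was -0.04, and 9 of 27 lay above 0. The groups did not overlap at 1 KLF probe set, the Klf6 set 1427742_a_at, with 9.91, 10.53, 10.42 and 10.12 in AA and 9.90, 9.85, 9.62 and 9.76 in SA (-0.46 ± 0.15 SE, adjusted p = 0.726). Without overlap between groups were 8 KLF probe sets in AS minus AA, 11 in SS minus SA and 12 in SS minus AS, against 16.3%, 16.7% and 18.6% of all probe sets, and 3.68% in SA minus AA.

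Probe sets of 1 gene did not always share a sign with its brightest, and 0 of those with the opposite sign passed. They were 8 of 18 other probe sets in AS minus AA. Of Klf3 they were 1441200_at (0.33), 1442920_at (0.31), 1458487_at (0.27), 1431630_a_at (0.26) and 1421604_a_at (0.12), against -0.08 at its brightest. The others were Klf5 1430255_at (-0.02) and Klf7 1419356_at (-0.34) and 1419355_at (-0.11). In SS minus SA these were 4 of 18: Klf6 1459718_x_at (-0.11), Klf13 1436316_at and 1456030_at, and Klf3 1458487_at, whose difference was -0.00094. In SA minus AA they were 6, namely Klf3 1421604_a_at, 1429360_at and 1431630_a_at, Klf5 1451739_at and 1430255_at, and Klf13 1436316_at. In SS minus AS they were 6, namely Klf3 1431630_a_at and 1458487_at, Klf5 1451739_at and 1430255_at, and Klf13 1436316_at and 1456030_at. In the difference between the adult effects they were 9: those 6 with Klf3 1441200_at and 1442920_at and Klf6 1427742_a_at. Klf2, Klf10 and Klf15 have 1 probe set each, so that no such comparison exists for them.

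Klf9 and Klf11, which are outside the 9, are given for their closeness to Klf15 and Klf10 in induction and in sequence. Klf9, a glucocorticoid- and thyroid-responsive repressor, had 12.97, 13.09, 13.02 and 13.32 in AA, 13.19, 13.16 and 13.14 in AS, 13.14, 12.55, 12.83 and 12.90 in SA, and 13.51, 13.58 and 13.58 in SS. Its SS samples were above all others, as those of Klf15 were. It rose by 0.70 ± 0.11 (SE) in SS over SA (adjusted p = 0.00583), and 3 of its 7 probe sets passed there, with 0.94 at 1428289_at and 1.22 at 1422264_s_at. The difference between the adult effects passed at 1422264_s_at (0.98, adjusted p = 0.0241) and not at the brightest (0.63, 0.155).

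Klf11, the nearest relative of Klf10, had 10.43, 10.37, 10.20 and 10.40 in AA, 10.07, 9.77 and 9.63 in AS, 10.07, 10.25, 10.16 and 9.91 in SA, and 10.26, 10.30 and 10.51 in SS. AS lay below AA without overlap, as for Klf10. It fell by 0.52 ± 0.11 (SE) in AS from AA (adjusted p = 0.0302) and was 0.53 ± 0.12 (SE) higher in SS than in AS (0.0423). The difference between the adult effects, 0.78, had an adjusted p of 0.0609. Of 14 other Klf and Sp factors measured, Klf11 was the only one called in AS minus AA at its brightest probe set, and Klf9 (higher) and Sp3 (-0.34, adjusted p = 0.0173) were those called in SS minus SA.

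**Figure D4:**
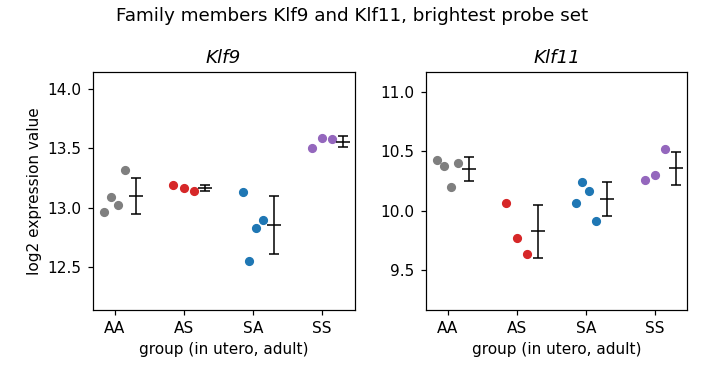
Log2 expression (y axis) of Klf9 and Klf11 at their brightest probe set in every sample by group (x axis), with the mean ± SD beside the points. Klf9 is highest in the 3 SS samples (13.51 to 13.58), and Klf11 is lower in the 3 AS samples (9.63 to 10.07) than in the 4 AA samples (10.20 to 10.43).

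Genes of the pathways around the KLFs were counted from lists, at the brightest probe set of each gene. The counts of unadjusted p under 0.05 are to be read against 20.3% of all probe sets in AS minus AA, 14.5% in SS minus SA, 13.6% in SS minus AS, 6.23% in SA minus AA and 9.11% in the difference between the adult effects. Of 15 genes upstream of Klf2 and Klf4 (the MEK5, ERK5 and MEF2 relay and flow sensing), 0 passed in any of the 5 comparisons, with 5 at an unadjusted p under 0.05 in AS minus AA and 0 to 3 in the others. Their median was -0.07 in AS minus AA against 0.02 over all genes. The list also holds Krit1, Ccm2, Pdcd10 and Heg1, which lie outside that relay. It was not split into activators and inhibitors, so its median gives no direction of the pathway. Of 15 endothelial targets of Klf2 and Klf4, 2 rose in AS over AA, where 0.591% of all probe sets did. These were Dll1, a Notch ligand (0.45, adjusted p = 0.0406), and S1pr1, the sphingosine 1-phosphate receptor of vessels and lymphocytes (0.44, 0.0367). In SS over SA, 3 rose and 1 fell, where 0.773% of all probe sets rose and 0.864% fell. F3, the starter of coagulation (1.06, 0.00440), Cyp1b1 (0.67, 0.00745) and S1pr1 (0.63, 0.00440) were higher and Angpt2 was lower (-0.30, 0.0349). Nos3 and Thbd, the classical endothelial targets of Klf2, were 0.03 and -0.00 in AS minus AA (adjusted p = 0.889 and 0.986). The median of the 15 was 0.05 in AS minus AA and 0.07 in SS minus SA, and 0 passed in SS minus AS (1 at an unadjusted p under 0.05). This list of targets was not split by whether Klf2 and Klf4 raise or lower a gene. Its counts and median are therefore no readout of their activity.

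Of 13 metabolic and glucocorticoid partners of Klf15 and Klf9, 4 rose in SS over SA and 0 fell, where 0.773% of all probe sets rose and 0.864% fell. Fkbp5, which dampens the glucocorticoid receptor as a co-chaperone, rose by 1.97 (adjusted p = 0.0100), the clock gene Per1 by 1.50 (0.00440), Tsc22d3, the glucocorticoid-induced leucine zipper, by 1.18 (0.00318) and Pdk4, a brake on glucose oxidation, by 0.94 (0.0490). Zbtb16 was 2.19 (0.0521). In AS minus AA, 0 of the 13 passed (5 at an unadjusted p under 0.05), and Per1 was 0.90 (0.0585). The median of the list was 0.09 in SS minus SA and 0.19 in AS minus AA, and 0 passed the test of the difference between the adult effects (6 at an unadjusted p under 0.05). Of 17 cofactors and degraders of KLF proteins, and of 13 genes on the TGF-beta side of Klf10 and Klf6, 0 passed in any of the 5 comparisons, with at most 4 and 3 at an unadjusted p under 0.05.

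Cell markers were read beside these results. The 7 endothelial markers, of the cells in which Klf2 and Klf4 are best known, had 0 calls (1 unadjusted p under 0.05, in SS minus SA), and the mean of the list relative to AA ran from -0.07 to 0.20 in AS, -0.08 to 0.05 in SA and -0.04 to 0.06 in SS, while Klf2 was 0.98 higher in AS than in AA. Lymphocyte markers were read in SS and AS, between which Klf2 differed. The mean of the 4 T cell markers ranged from -0.41 to -0.24 in SS, -0.25 to 0.00 in SA, -0.08 to 0.14 in AS and -0.13 to 0.21 in AA, with Cd2 the 1 marker that passed in SS minus AS (-0.40, adjusted p = 0.0154). That of the 4 B cell markers ranged from -0.94 to -0.47 in SS, -0.22 to 0.22 in SA, -0.10 to 0.52 in AS and -0.43 to 0.34 in AA, with a median difference of -1.10 in SS minus AS and Cd79a the 1 that passed (-1.31, 0.0125), while Pax5 was 0.0088 (0.970). The part of these cells in the values of Klf2, Klf7, Klf10 and Klf15 was not tested.

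**Figure D5:**
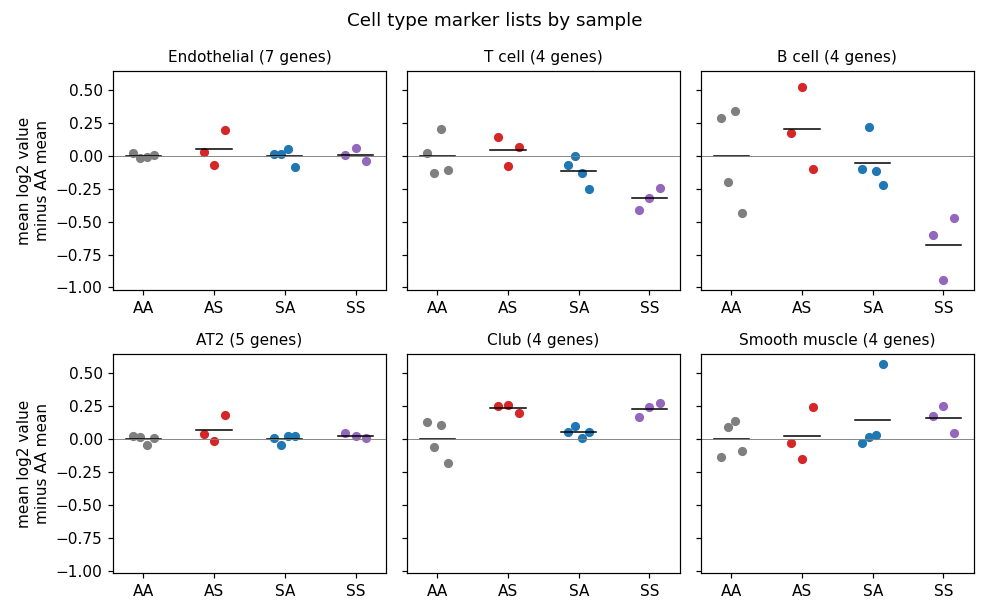
Mean log2 value of 6 cell type marker lists in every sample, minus the AA mean (y axis), by group (x axis), with a bar at each group's mean. The endothelial list stays between -0.08 and 0.20 in all samples, the B cell list is lowest in the 3 SS samples, and the T cell list of SS (-0.41 to -0.24) just meets that of SA (-0.25 to 0.00).

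The gene outside the family whose pattern over the 14 samples was most like each member was found among 11028 genes, by Pearson's r at the brightest probe set. For Klf2 it was Jun, a part of AP-1 (r = 0.959), for Klf4 Ets2 (0.914), for Klf5 Tagln2 (0.962) and for Klf6 the cytokine gene Il1a (0.958). For Klf10 it was Gjc1, a gap junction gene (0.910), for Klf13 the clock kinase gene Csnk1e (0.918), for Klf15 the adiponectin receptor gene Adipor2 (0.910), for Klf7 Dusp16 (0.927) and for Klf3 Tmtc1 (0.941). These r values describe 14 samples that share groups and normalization. With the group means taken out, r was 0.668 for Klf2 and Jun, 0.618 for Klf10 and Gjc1 and 0.531 for Klf7 and Dusp16. It was 0.942 for Klf5 and Tagln2 and 0.944 for Klf6 and Il1a. The SD of Klf5 was 0.33 in AS, where the averaged replicates 3 and 4 stood apart (10.40 against 9.79 and 9.88). In AA, SA and SS its SD was 0.06, 0.06 and 0.02. How far r rests on that AS sample was not tested.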

How the data were processed

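Of the 16 arrays deposited, 4 per group, each holds 1 log2 value per probe set. The log2 values were used as the authors deposited them, with array medians of 6.90 to 6.93. Such close medians point to normalization between arrays before deposit. Per the submitters' processing notes limma was used, and how background and normalization were handled is not stated in the labels. The 64 control probe sets were removed, no filter on low values was applied, and all 27 Kruppel-like factor probe sets were tested. A limma 3.58.1 model (R 4.3.3) with a mean per group was fitted to the 14 samples (10 residual degrees of freedom before moderation), with 2-sided tests of 5 contrasts and Benjamini-Hochberg adjustment over 45037 probe sets within each, and was tested on simulated data. For arrays, their number limits the precision. The p-values measure the spread between samples whose litters are not given.

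All 9 genes were named, each by its brightest probe set and any other whose call or sign differed; in gene lists, up to 3 genes past the threshold and 2 others were named by size. Angpt2 and Pdk4, the fourth called of their lists, and Nos3, Thbd and Pax5 were added after their values were seen. The members and lists were chosen with earlier results of these data known. Of 172 listed genes, 159 were matched by symbol. For likeness, genes with a mean above 7 were used. Promoters of 7 of 9 members were matched by symbol in RefSeq (GRCm38.p6). Alternatives were the 16 arrays as separate samples, a replicate block, only the groups compared, quantile normalization, median centring, array weights, a filter at a mean of 6, the brightest probe sets only, and leaving out each sample.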

Additional observations from a re-analysis of the deposited data

Results flagged for a closer look

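Among the 54 sets of values of 4 samples examined (27 probe sets in AA and in SA), 3 held a sample whose gap to its nearest neighbour took up nearly the whole range of the group, by Dixon's criterion; chance gives about 1 in 20 such sets. At the Klf5 probe set 1451739_at, AA replicate 3 had 8.65 and the other AA samples 8.13 to 8.21. At the brightest Klf7 probe set, SA replicate 4 had 10.84 and the other SA samples 10.98 to 11.01. At the Klf7 probe set 1419355_at, AA replicate 2 had 10.07 and the other AA samples 9.60 to 9.64.

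For 2 of the 9 genes the effect of adult SHS differed between the in-utero groups in the test of that difference. It was lower by 1.05 log2 units after SHS in utero for Klf2 (-1.05) and higher by 1.31 for Klf10.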

How the results depend on the processing

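Over the settings other than leaving out a sample, 449 of 487 values kept their direction and side of the threshold, 6 lost a call, 25 gained one and 7 changed sign. With all 16 arrays as separate samples, 3565 probe sets passed in AS minus AA, 1345 in SS minus SA, 2214 in SS minus AS and 330 in the difference between the adult effects, with 9, 8, 8 and 4 of the KLFs. With only the 2 groups compared, 47 passed in AS minus AA and 131 in SS minus AS, with 2 KLFs in the latter, and Klf10 in AS minus AA was lost (adjusted p = 0.0957). Array weights gave 2154 in SS minus SA (8 KLFs), 1181 in SS minus AS (7 KLFs) and 205 in the difference. Quantile normalization gave 89 in the difference. With the brightest probe sets only, 179, 470, 134 and 27 passed, in the order above, with 3 KLFs in SS minus SA; here fewer probe sets were tested. Otherwise the cause was not tested. Leaving out 1 sample at a time, the counts ran from 185 to 905 in AS minus AA (2 to 5 KLFs), 171 to 1014 in SS minus SA (0 to 6), 136 to 507 in SS minus AS (2 to 4) and 23 to 115 in the difference (0 to 2); SA minus AA stayed at 0.

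The values that changed sign had passed in no setting. In AS minus AA they were Klf7 1449439_at (-0.019 with 16 arrays, -0.045 with a replicate block), Klf7 1419354_at (-0.054 with the block) and Klf3 1429360_at (0.027 after quantile normalization, 0.0018 after centring, 0.059 with weights), and in SA minus AA Klf5 (-0.0055 after quantile normalization). Without 1 sample, differences in AS minus AA ran from -0.15 to 0.029 for Klf3 1454666_at, -0.089 to 0.072 for Klf3 1429360_at, -0.065 to 0.065 for Klf7 1449439_at and -0.070 to 0.071 for Klf7 1419354_at, and in SS minus SA from -0.18 to 0.070 for Klf2. In SA minus AA they ran from -0.15 to 0.014 for Klf2, -0.068 to 0.16 and -0.043 to 0.23 for Klf4 1417394_at and 1417395_at, -0.022 to 0.031 for Klf5, -0.13 to 0.013 for Klf7 1419354_at, -0.15 to 0.047 for Klf10, -0.096 to 0.14 for Klf13 and -0.27 to 0.037 for Klf15.

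The labels give no sign that replicate numbers pair the samples, and same-numbered samples did not deviate together (r from -0.16 to 0.25 over 18 pairs). With the replicate block, 826 probe sets passed in AS minus AA, 496 in SS minus SA, 301 in SS minus AS and 52 in the difference, with 4, 4, 5 and 3 KLFs. Klf15 in SS minus SA (adjusted p = 0.0667) and Klf10 in the difference (0.0653) no longer passed, and Klf4 1417394_at in AS minus AA (0.0406), Klf7 1419356_at in SS minus AS (0.0241) and in the difference (0.0318), and Klf7 1419354_at in the difference (0.0488) did.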

Other observations

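Calls among markers of other cell types are to be read against 1.55% of all probe sets in AS minus AA and 1.64% in SS minus SA. In AS over AA, Scgb3a1, a secretory airway gene, rose by 0.89 (adjusted p = 0.0366, limma), and Lrrn4, a mesothelial gene, fell by 0.60 (0.00976). In SS from SA, Tcf21, a fibroblast factor, fell by 0.43 (0.0132). Each was the 1 gene of its list that passed in that comparison, of 4 club cell, 4 mesothelial and 6 fibroblast markers. The mean of the club cell list relative to AA was 0.20 to 0.26 in AS and 0.16 to 0.27 in SS. It was 0.01 to 0.10 in SA and -0.18 to 0.13 in AA. The median difference of the club cell list was 0.02 in AS minus AA and 0.07 in SS minus SA, against 0.02 and -0.01 over all genes. The mean of the erythroid list reached 2.15 in SA replicate 4, against at most 0.98 in SS and 0.86 in AS. That sample was also the highest of all in the smooth muscle list (0.57) and the skeletal muscle list (0.68), and the lowest in the endothelial list (-0.08). It had the lowest Klf2 (11.67) and both lowest Klf4 values (11.49 and 10.02) of the SA group. In AA and in SS, replicate 4 was the highest of its group on the erythroid list (0.76 and 0.98). Each also had the lowest Klf2 value of its group (11.99 and 11.65). In AS, replicate 2 was the highest on that list (0.86), and its Klf2 value of 13.03 lay between those of the other AS samples (13.01 and 13.19). The part of blood or of other tissue in these values was not tested.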
